A study of Mus musculus with 6 samples.

Results

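Reticulons, REEPs and atlastins are the membrane proteins that give the endoplasmic reticulum (ER) its tubular shape. The set was defined by name: the reticulons Rtn1, Rtn2, Rtn3 and Rtn4, the receptor expression-enhancing proteins Reep1, Reep5 and Reep6, and the atlastins Atl1, Atl2 and Atl3. Of these 10 listed genes, 9 were among the 19937 genes represented on the arrays by a probe set carrying a single gene symbol. The expression of Atl2 was not analysed here, because no probe set used here named it. Each of the other members had 1 such probe set and no additional one.

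Reticulons and REEPs carry hairpins that sit in the outer leaflet of the ER membrane and bend it, so that sheets roll into tubules. Atlastins are GTPases that fuse tubules with each other and so make the junctions of the network. The ER of the β cell is the site where proinsulin is made and folded before it leaves for the Golgi. In other tissues these genes are best known from the nervous system, where mutations of Atl1, Reep1 and Rtn2 cause hereditary spastic paraplegia.

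Whole islets from 6 mouse samples were profiled, 1 Affymetrix Mouse Gene ST array per sample. The 3 control samples had the genotype Ins2-rtTA, in which the insulin promoter drives the doxycycline-controlled transactivator in insulin-producing cells. The genotype is that of the sample labels, and a legend in the paper gives TetO-Sox17 as control for its own protein analysis at the same exposure. The 3 Sox17-GOF (gain-of-function) samples carried Ins2-rtTA;tetO-Sox17, so that doxycycline turns on the transcription factor Sox17 in those cells. All 6 samples came from 16-week-old C57BL/6 animals, derived from an outbred background by at least 3 generations of backcrossing, and all had received doxycycline in food and water for 24 hours, controls included. Islets also hold α, δ and PP cells, vessels and stroma, and acinar and duct markers were on the arrays too, so a change in whole-islet RNA does not tell fewer cells of a type from less RNA per cell. Values are the deposited log2 signals, where a step of 1 doubles the signal. The methods describe the samples of a genotype as independent biological replicates, and the number of arrays limits the precision. Array medians lay between 6.31 and 6.41, and arrays of one genotype correlated at 0.984 to 0.991 across probe sets. The targeted gene was in the direction of the labels, since Sox17 read 5.50, 5.72 and 5.71 in control and 6.35, 6.22 and 6.36 in Sox17-GOF islets.

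The windows around annotated transcription starts are shown for Rtn1, the member with the largest change, and for Atl1, a second member that rose. The sequences are those of RefSeq on GRCm38.p6, 250 bases before to 50 bases after a start, 5′ to 3′ on the strand of the gene. Rtn1 has 3 annotated starts, all on the minus strand of chromosome 12, at windows chr12:72409005-72409304, chr12:72236678-72236977 and chr12:72235697-72235996. Atl1 lies on the plus strand of the same chromosome, with the window chr12:69892855-69893154. Capitals mark AACAATG and AACAAAG, 7-letter forms of the SOX-type motif, on either strand.
Rtn1, chr12:72409005-72409304: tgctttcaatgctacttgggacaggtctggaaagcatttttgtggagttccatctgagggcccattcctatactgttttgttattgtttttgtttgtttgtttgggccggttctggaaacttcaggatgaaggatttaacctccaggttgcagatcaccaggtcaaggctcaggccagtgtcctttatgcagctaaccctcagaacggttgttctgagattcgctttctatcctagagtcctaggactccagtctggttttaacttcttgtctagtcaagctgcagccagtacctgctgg
Rtn1, chr12:72236678-72236977: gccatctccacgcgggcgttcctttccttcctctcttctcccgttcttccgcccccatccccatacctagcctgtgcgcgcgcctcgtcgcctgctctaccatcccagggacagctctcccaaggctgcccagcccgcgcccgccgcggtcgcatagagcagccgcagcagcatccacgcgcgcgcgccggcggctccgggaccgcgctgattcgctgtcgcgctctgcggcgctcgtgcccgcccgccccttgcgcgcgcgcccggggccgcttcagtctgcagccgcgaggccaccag
Rtn1, chr12:72235697-72235996: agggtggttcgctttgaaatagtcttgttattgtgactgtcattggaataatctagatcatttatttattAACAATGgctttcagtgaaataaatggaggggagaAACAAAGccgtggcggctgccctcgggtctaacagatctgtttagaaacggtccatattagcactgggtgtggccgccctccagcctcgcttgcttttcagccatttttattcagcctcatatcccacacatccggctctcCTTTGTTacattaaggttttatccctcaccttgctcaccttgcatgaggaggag
Atl1, chr12:69892855-69893154: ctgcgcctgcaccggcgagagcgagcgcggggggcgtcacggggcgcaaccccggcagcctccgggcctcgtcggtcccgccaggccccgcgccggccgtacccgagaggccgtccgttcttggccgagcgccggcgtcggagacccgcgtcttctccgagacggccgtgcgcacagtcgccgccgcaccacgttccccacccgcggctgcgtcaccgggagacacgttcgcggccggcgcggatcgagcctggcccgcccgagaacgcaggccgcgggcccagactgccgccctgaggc

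No window was listed for Reep5 or Reep6, so neither gene was searched. Among 12 windows listed for the other 8 members, Atl2 included, the Rtn1 window chr12:72235697-72235996 was the only 1 to hold either motif. It held 3 matches that did not overlap, AACAATG 180 bases and AACAAAG 145 bases before the start, and CTTTGTT, the reverse complement of AACAAAG, beginning 4 bases before it. AACAATG occurs in 3.78% and AACAAAG in 5.85% of all 32851 windows of this length, and 9.36% hold at least one of them. GC content was 46.3%, 73.3% and 45.3% in the Rtn1 windows in the order printed and 78.3% in the Atl1 window, against a median of 52.7% over all windows. A match is a description of the letters, and the Rtn1 probe set was not assigned here to transcripts of one start.

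Rtn1 rose most among the members. It encodes a reticulon known from neurons and neuroendocrine cells, where it was first described as neuroendocrine-specific protein. Its log2 level was 8.52, 8.23 and 7.52 in control islets and 10.15, 9.98 and 10.18 in Sox17-GOF islets. Every Sox17-GOF array lay above every control array by more than the whole spread of the controls, and control replicate 3 was the lowest array. The mean level went from 8.09 ± 0.51 to 10.11 ± 0.11 (SD, n = 3 each). The log2 difference was 2.01 with a standard error of 0.23 (95% interval 1.48 to 2.55), a 4.04-fold rise with an adjusted p of 0.00437 in limma. By the size of its increase Rtn1 ranked 35 among the 19937 genes. Without control replicate 3 the difference was 1.73, and it passed in 6 of 6 fits that each left out 1 array.

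The other reticulons moved little. Rtn2, an ER-shaping protein of nerve and muscle, read 7.47, 7.46 and 7.41 in control and 7.79, 7.60 and 7.61 in Sox17-GOF islets. Rtn3, which also serves as a receptor for the autophagy of ER tubules, read 10.94, 10.97 and 10.82 in control and 11.28, 11.08 and 11.16 in Sox17-GOF islets. For both genes the groups did not overlap, yet the log2 differences of 0.21 and 0.26 did not pass the adjusted threshold (limma, adjusted p = 0.215 and 0.149). Their 95% intervals, 0.022 to 0.41 and 0.061 to 0.46, lay wholly below that of Rtn1. Rtn4, also called Nogo and known as an inhibitor of axon regrowth, read 9.87, 10.03 and 10.07 in control and 9.99, 9.93 and 10.02 in Sox17-GOF islets. Its groups overlapped, with a log2 difference of -0.0060 (95% interval -0.20 to 0.19, adjusted p = 0.982 in limma).

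**Figure D1:**
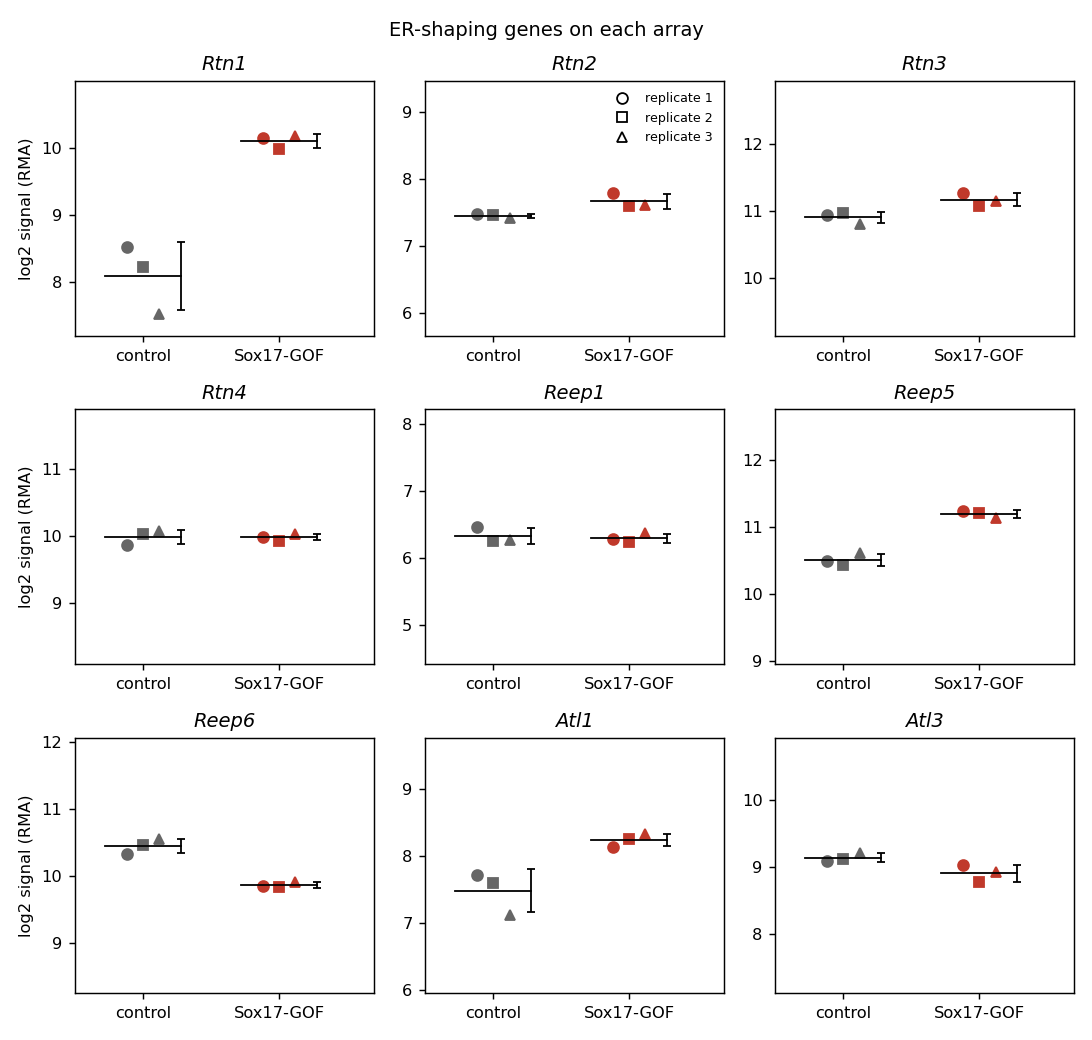
Log2 signal of each of the 9 measured members on each of 6 arrays, 3 control and 3 Sox17-GOF. Symbols mark the replicate number, horizontal lines the group mean and bars the SD, and all panels span the same log2 range. Rtn1, Reep5 and Atl1 sit higher and Reep6 lower in Sox17-GOF islets, and control replicate 3 is the lowest control array for Rtn1, Rtn2, Rtn3 and Atl1.

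The REEP family moved in both directions. Reep5 belongs to the broadly expressed REEPs that stabilise tubules. Its log2 level was 10.49, 10.43 and 10.61 in control and 11.24, 11.21 and 11.13 in Sox17-GOF islets. All Sox17-GOF arrays were higher, and the gap between the groups exceeded the range within either. The means were 10.51 ± 0.09 and 11.19 ± 0.06 (SD, n = 3 each), a rise of 0.68 with a standard error of 0.08, or 1.60-fold (95% interval of the log2 difference 0.50 to 0.87, adjusted p = 0.00472 in limma).

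Reep6 was the member that fell. It is the nearest relative of Reep5 in the set and is known from the rod photoreceptor, where its loss leads to retinal degeneration. Control islets gave log2 levels of 10.34, 10.47 and 10.55, and Sox17-GOF islets gave 9.85, 9.84 and 9.92. The Sox17-GOF arrays were tightly grouped and all below the controls. The mean fell from 10.45 ± 0.11 to 9.87 ± 0.04 (SD, n = 3 each), a log2 difference of -0.58 with a standard error of 0.08, or 1.50-fold lower (95% interval -0.77 to -0.39, adjusted p = 0.00991 in limma). Without control replicate 2 the difference was -0.57 and the adjusted p was 0.0549, and the other 5 fits with an array left out passed.

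Reep1, the REEP of spastic paraplegia, links ER tubules to microtubules. It read 6.47, 6.25 and 6.27 in control and 6.28, 6.23 and 6.37 in Sox17-GOF islets. These groups overlapped, and the log2 difference was -0.033 (95% interval -0.24 to 0.17, adjusted p = 0.888 in limma).

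Atl1 rose, while Atl3 did not pass. Atl1 is the atlastin found mainly in neurons. It gave log2 levels of 7.72, 7.59 and 7.11 in control and 8.13, 8.25 and 8.32 in Sox17-GOF islets. No array of one group fell within the range of the other, and control replicate 3 was again the lowest. The mean went from 7.47 ± 0.32 to 8.23 ± 0.10 (SD, n = 3 each), a log2 difference of 0.76 with a standard error of 0.16, or 1.69-fold (95% interval 0.40 to 1.12, adjusted p = 0.0360 in limma). This call was the least firm of the 4: the adjusted p was 0.0965 without control replicate 2, and 0.0638, 0.103 and 0.0851 when Sox17-GOF replicate 1, 2 or 3 was dropped. It was also 0.0899 when probe sets without a gene symbol were included in the adjustment.

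Atl3, a broadly expressed atlastin, read 9.09, 9.13 and 9.22 in control and 9.03, 8.78 and 8.93 in Sox17-GOF islets. All Sox17-GOF arrays were below the controls, by a gap smaller than the spread of either group. The log2 difference was -0.23 (95% interval -0.44 to -0.022, adjusted p = 0.220 in limma).

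Counted together, 3 of the 9 measured members were called higher, beside 2.77% of all genes, and 1 was called lower, beside 2.44% of all genes. The members were chosen with earlier results of these data known, so all counts here describe the list only. Reep2, Reep3 and Reep4, none of which passed, are counted with another list below. The other 5 did not pass. Without control replicate 2, 2 members were called higher and 0 lower. Every Sox17-GOF array lay above every control array for 5 members and below for 2, against 11.3% and 14.2% of all genes. The median log2 difference was 0.21 over the members and -0.011 over all genes. At an unadjusted p below 0.05 limma found 7 of 9 members, beside 19.7% of all genes. The methods' t-test with their fold threshold of 1.3 found 4, beside 7.42% of all genes. They were the genes of limma's adjusted test. After Benjamini-Hochberg adjustment it found 0, with 65 of 19937 genes passing.

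**Figure D2:**
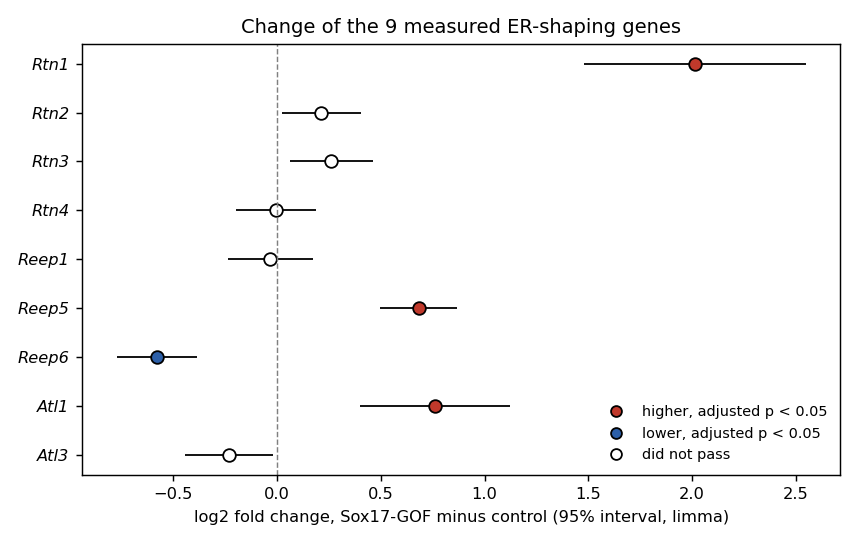
Log2 difference between Sox17-GOF and control islets for each measured member (horizontal axis), with the 95% interval from limma over 6 arrays. Filled points passed an adjusted p of 0.05. Rtn1 stands at 2.01, Atl1 at 0.76 and Reep5 at 0.68, Reep6 stands at -0.58, and the remaining 5 lie between -0.23 and 0.26.

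Members of one family were then set against each other within each array, as the difference of their log2 signals. Probe sets differ in brightness for reasons other than RNA amount, so the ratio of one gene to another is not a ratio of transcripts and only its change between groups is compared. Of 10 pairs, 8 changed without overlap between the groups. Taken singly, 5 members already lay above and 2 below without overlap, and the pairs share genes. No share over all gene pairs was computed, so the count is a description. For each of those 8 the exact two-sided permutation test gave p = 0.10, the smallest value that 3 against 3 arrays allow, and an adjusted p of 0.125 over the 10 pairs, so no pair could pass a threshold of 0.05.

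Rtn1 against Rtn4 showed the widest shift. This log2 ratio was -1.35, -1.80 and -2.54 on the control arrays and 0.16, 0.05 and 0.16 on the Sox17-GOF arrays, a change of 2.02 or 4.06-fold. Against Rtn2 and Rtn3 the change of Rtn1 was 1.80 and 1.75. Reticulons other than Rtn1 kept closer company: the ratios of Rtn2 to Rtn3 and of Rtn2 to Rtn4 overlapped between groups, with changes of -0.048 and 0.22, and Rtn3 to Rtn4 changed by 0.27 without overlap.

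Reep5 and Reep6 parted in opposite directions. Their log2 ratio was 0.15, -0.04 and 0.06 in control and 1.39, 1.36 and 1.21 in Sox17-GOF islets, a change of 1.26 or 2.40-fold that was far larger than the spread within either group. Reep1 changed by -0.71 against Reep5 and by 0.55 against Reep6. Within the atlastins, the ratio of Atl1 to Atl3 was -1.37, -1.53 and -2.11 in control and -0.90, -0.53 and -0.61 in Sox17-GOF islets. That is a change of 0.99 or 1.99-fold, with control replicate 3 again the farthest from the Sox17-GOF arrays.

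**Figure D3:**
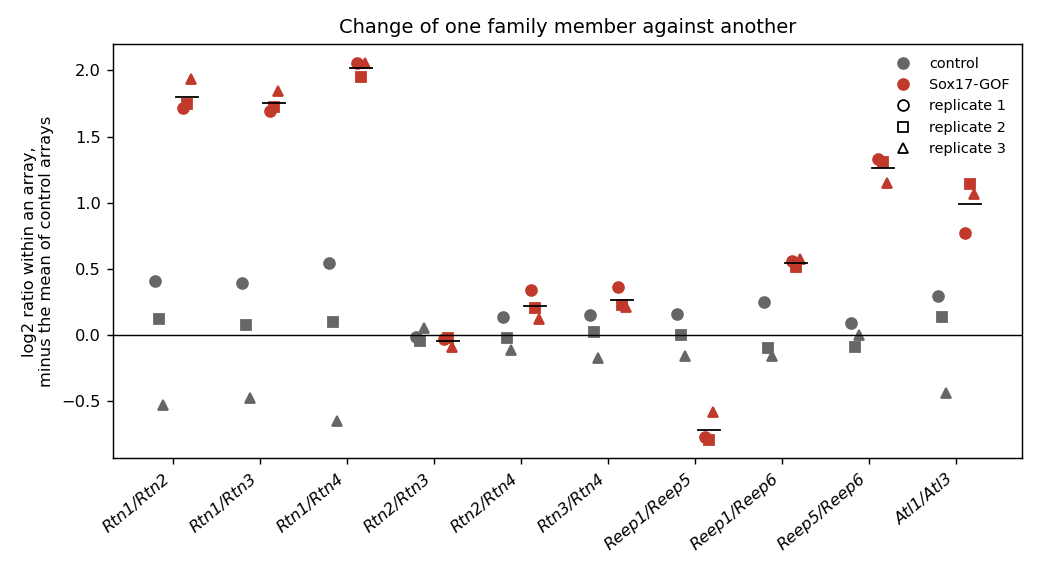
Difference of the log2 signals of 2 genes of a family within each array, minus its mean over the control arrays, for 10 pairs. Grey symbols are control and red symbols Sox17-GOF arrays, with the Sox17-GOF mean as a line. The change is largest for Rtn1 against Rtn4 (2.02) and is 1.26 for Reep5 against Reep6, while Rtn2 against Rtn3 (-0.048) and Rtn2 against Rtn4 (0.22) overlap.

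The rest of the ER network was examined with 5 lists covering 68 measured genes. Of these, 1 was called higher (1.47%, beside 2.77% of all genes) and 2 were called lower (2.94%, beside 2.44%). The groups did not overlap, with Sox17-GOF lower, for 19 of the 68 genes (27.9%, beside 14.2% of all genes) and, with Sox17-GOF higher, for 3 (4.41%, beside 11.3%). The median log2 difference over the 68 genes was -0.068. The remaining 65 did not pass. The counts were 0 and 0 without control replicate 1, 1 and 0 without control replicate 2, and 0 and 1 when control replicate 3, Sox17-GOF replicate 2 or Sox17-GOF replicate 3 was left out.

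Of 18 other ER-shaping proteins, 0 were called higher and 1 was called lower, beside 2.77% and 2.44% of all genes. The median log2 difference was -0.044. The gene that fell was Rab3gap2, which encodes a subunit of the exchange factor for Rab18 and is needed for normal ER sheets and tubules. It read 9.62, 9.40 and 9.20 in control and 8.63, 8.86 and 8.62 in Sox17-GOF islets, a difference of -0.70 (standard error 0.12, adjusted p = 0.0215 in limma). Reep2, Reep3 and Reep4 are the remaining REEPs of that list, and none passed. Their log2 differences were 0.14, -0.28 and -0.22.

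Reticulon-like domains also occur in receptors that feed ER into autophagosomes. Of 8 such ER-phagy receptors, 1 was called higher and 0 lower, beside 2.77% and 2.44% of all genes, and the median was -0.049. The gene that rose was Retreg3, whose product has a reticulon homology domain. It read 6.84, 7.20 and 6.83 in control and 7.45, 7.72 and 7.64 in Sox17-GOF islets, a difference of 0.65 (standard error 0.12, adjusted p = 0.0293 in limma). Its relatives Retreg1 and Retreg2 differed by -0.22 and -0.033 and did not pass.

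The list of Nogo receptors and partners held 10 measured genes, with a median of -0.018. Of these, 0 were called higher and 1 lower, beside 2.77% and 2.44% of all genes. Rtn4rl1, a homologue of the Nogo receptor at the cell surface, fell. It read 8.96, 8.97 and 9.29 in control and 8.52, 8.22 and 8.49 in Sox17-GOF islets, a difference of -0.66 (standard error 0.12, adjusted p = 0.0266 in limma). Rtn4r, the Nogo receptor itself, differed by 0.093 and did not pass.

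These 3 calls were fragile. Each passed in 2 of 6 fits with 1 array left out. An adjusted p computed with control replicate 1 removed was 0.0662 for Rab3gap2, 0.111 for Retreg3 and 0.0648 for Rtn4rl1. For Rab3gap2 the value was 0.0887, 0.0594 and 0.0524 when control replicate 2, Sox17-GOF replicate 1 or Sox17-GOF replicate 3 was left out. For Retreg3 it was 0.0987, 0.0948 and 0.0670 when control replicate 3, Sox17-GOF replicate 2 or Sox17-GOF replicate 3 was left out. For Rtn4rl1 it was 0.0745 when Sox17-GOF replicate 2 was left out, and 0.0771 and 0.0677 when control replicate 2 or 3 was.

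The translocon of the rough ER, which threads new proteins such as proinsulin through the membrane, held 9 measured genes. With limma 0 of 9 passed, 2 were below an unadjusted p of 0.05, near the 19.7% of all genes, and the methods' t-test after adjustment found 0. All 9 log2 differences were below 0, from -0.36 for Ssr2 to -0.0067 for Ssr4, with a median of -0.15. Sec61a1, a pore subunit, differed by -0.21. Other genes of hereditary spastic paraplegia numbered 23 and included Spart, at -0.59, and Spg11, at -0.26. Both had every Sox17-GOF array below every control array. That held for 8 of the 23, beside 14.2% of all genes, and 0 lay wholly above the controls, beside 11.3%. By limma 0 of 23 passed, 8 were below an unadjusted p of 0.05 (beside 19.7% of all genes), the methods' t-test after adjustment found 0, and the median was -0.034.

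**Figure D4:**
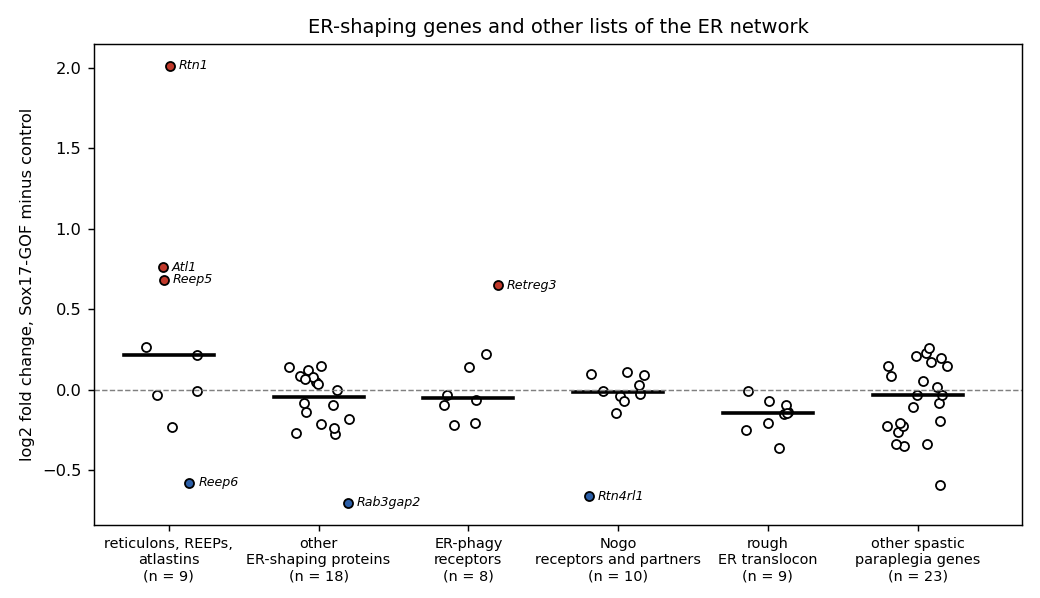
Log2 difference between Sox17-GOF and control islets for the 9 measured members and for each gene of 5 other lists of the ER network. Each point is a gene, filled and named where it passed an adjusted p of 0.05 in limma, and each bar is the median of a list. The members span -0.58 to 2.01 around a median of 0.21, while the medians of the other lists lie between -0.15 and -0.018.

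The genes whose profiles over the 6 arrays lay nearest to those of Rtn1 and Reep6 were found by the Euclidean distance between log2 values centred on each gene's own mean. They share all 6 arrays with the member, so the likeness is a description. For Rtn1 the nearest were Syt1, the calcium sensor of synaptic vesicle release (distance 0.355, r = 0.991), Pmp22, a myelin membrane protein (0.519, r = 0.982), and Sema3e, a secreted semaphorin (0.559, r = 0.977). Syt1 read 7.25, 7.05 and 6.29 in control and 8.94, 8.85 and 8.61 in Sox17-GOF islets, with control replicate 3 lowest as for Rtn1. The log2 differences were 1.94 for Syt1, 2.15 for Pmp22 and 1.95 for Sema3e. For Reep6 the nearest were Rragd, a Rag GTPase of nutrient signalling (distance 0.104, r = 0.991), Kdm7a, a histone demethylase (0.117, r = 0.987), and Il10rb, a cytokine receptor subunit (0.120, r = 0.998). Their log2 differences were -0.61, -0.55 and -0.49.

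Markers of the islet and its neighbouring cells were read beside these changes. Of 9 β-cell markers 0 were called higher and 5 lower (Ucn3, Slc2a2, Pdx1, G6pc2 and Slc30a8), beside 2.44% of all genes called lower. The log2 of the summed signal of the 9 was at least 15.30 on every control array and at most 15.02 on every Sox17-GOF array. Ins2, which encodes insulin, differed by -0.011. It read 13.02 to 13.12 on every array, and whether its probe set was near the upper limit of signal was not tested. The 3 α-cell, 3 δ-cell and 7 acinar markers and Ppy held no called gene, and 0 of these were below an unadjusted p of 0.05 in limma. The log2 of the summed acinar signal was 15.63, 15.32 and 15.37 in control and 14.75, 15.46 and 15.77 in Sox17-GOF islets. The groups overlapped, and the Sox17-GOF arrays spread more widely than the controls. None of the 6 duct, 7 leukocyte or 6 Schwann cell markers was called either, with 2, 1 and 1 below an unadjusted p of 0.05 in limma. Cftr and Cdh19 among these markers lay below the 20th percentile of all signals in both groups. The 2 duct genes were Krt19, at 1.32 with every Sox17-GOF array above the controls, and Krt7, at -0.34 with every one below. Krt19 read 6.74, 7.07 and 9.13 in Sox17-GOF islets. All 6 Schwann cell markers had a log2 difference above 0, beside 9387 of 19937 genes. Of them, 2 lay without overlap above the controls, beside 11.3% of all genes. Of 8 endothelial markers 0 were called higher and 1, Kdr, was called lower, beside 2.44% of all genes. In limma 5 were below an unadjusted p of 0.05, beside 19.7% of all genes. The log2 of their summed signal was at least 11.55 on every control array and at most 11.43 on every Sox17-GOF array, while Pecam1 and Cdh5, at 0.37 and 0.27, had differences above 0 and did not pass.

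Because Rtn1 and Atl1 are known from neurons, neuronal and stromal markers were set beside them. Of 10 neuronal markers 0 were called higher and 1, Th, was called lower (beside 2.44% of all genes), while 6 had a log2 difference above 0. Gap43, the largest of these at 1.03, did not pass (adjusted p = 0.0668 in limma). The log2 of the summed neuronal signal was 10.84, 10.88 and 10.59 on the control arrays and 10.92, 10.77 and 11.01 on the Sox17-GOF arrays. The groups overlapped, and control replicate 3 was lowest, as for Rtn1, Rtn2, Rtn3 and Atl1. Opposite changes offset each other in this sum: Th differed by -0.94 and Gap43 by 1.03, each without overlap between groups. Of 9 stellate and fibroblast markers 0 were called in either direction. All 9 were above 0, beside 9387 of 19937 genes, and 5 lay without overlap above the controls, beside 11.3% of all genes. Their log2 summed signal was 10.06, 10.28 and 9.57 in control and 9.95, 10.53 and 10.70 in Sox17-GOF islets, with control replicate 3 again lowest. Bright and variable genes weigh most in this sum. Among them Dcn overlapped between groups, at 8.24, 9.09 and 6.31 in control and 7.66, 9.04 and 9.46 in Sox17-GOF islets. A sum without Dcn was not computed. The log2 summed leukocyte signal was 9.95, 10.32 and 9.21 in control and 9.43, 9.62 and 9.83 in Sox17-GOF islets. Control replicate 3 was lowest there too. The part of neurons, stromal cells, leukocytes and Schwann cells in the rise of Rtn1 and Atl1 was not tested. Nor was the part of the lower β-cell and endothelial signals, or of the varying acinar signal, in any of the changes. Without control replicate 3 the rises were 1.73 for Rtn1 and 0.58 for Atl1, with adjusted p of 0.00336 and 0.0420 in limma. Leaving out an array does not separate cell types. Atl1 also did not pass without control replicate 2 or without any one Sox17-GOF replicate.

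**Figure D5:**
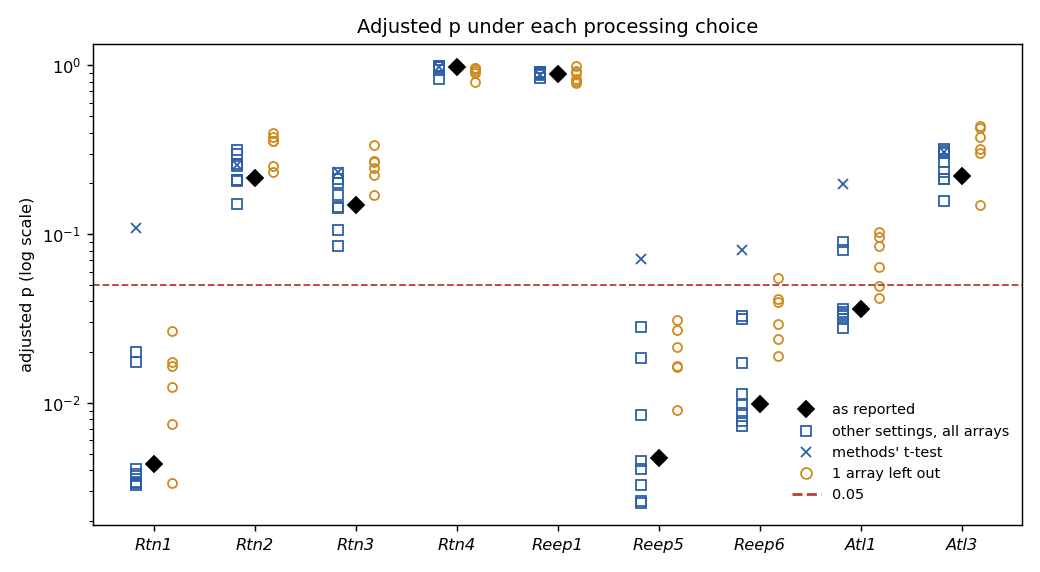
Adjusted p (vertical axis, log scale) of each measured member as reported and under other settings with all arrays, the methods' t-test and fits with 1 array left out, against a threshold of 0.05. Rtn1 and Reep5 pass in every setting except the methods' t-test (0.109 and 0.0710), Reep6 fails there (0.0809) and without control replicate 2 (0.0549), and Atl1 straddles the threshold from 0.0279 to 0.200.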

How the data were processed

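Islet RNA was isolated after collagenase digestion and a Ficoll gradient, amplified and biotin-labelled with NuGEN kits and hybridised to Affymetrix arrays. The authors deposited log2 values from RMA (background correction, quantile normalization of probes and summarization per probe set). GeneSpring 10.1 is named for this step in the methods and Affymetrix Expression Console in the submitters' processing notes.

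Samples were grouped by genotype and fitted with lmFit and eBayes of limma 3.58.1 (R 4.3.3), with no intensity trend. Benjamini-Hochberg adjustment ran over the 22961 of 34760 probe sets with a symbol, at a threshold of 0.05. A gene was represented by its brightest single-symbol probe set (19937 genes). Family pairs were compared by exact permutation, over 10 pairs, since the expression of Atl2 was not analysed here. SOX-type motifs were counted in the RefSeq windows listed, none of which was for Reep5 or Reep6. The fit was tested on simulated data.

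Members and lists were chosen with earlier results of these data known. Named were all members, up to 4 called genes per ER list and the 3 profiles nearest to the members with the largest rise and fall. Reep2, Reep3, Reep4, Retreg1, Retreg2, Rtn4r, Ssr2, Ssr4, Sec61a1, Spart, Spg11 and the cell markers named were chosen after their values were seen.

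Alternatives changed one choice at a time. The fit was repeated with array weights, with an intensity trend, with a block for the replicate number, and as the methods' t-test. Values were median-centred or quantile-normalized again. Probe sets without a symbol were added, those with both group means at or below 4.63 (the 20th percentile) were removed, or a gene's probe sets were averaged. Each array was left out in turn.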

Additional observations from a re-analysis of the deposited data

How the results depend on the processing

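The direction of Rtn1, Rtn2, Rtn3, Reep5, Reep6, Atl1 and Atl3 held under every alternative run. Rtn4 changed sign around 0, at 0.049 after quantile normalization and between -0.065 and 0.034 with 1 array left out, and Reep1 lay between -0.072 and 0.036 with 1 array left out; neither passed anywhere. Under the methods' t-test, 0 members were called higher and 0 lower, and 0 ER-network genes were called in either direction. The adjusted p was then 0.0906 for Sox17 (0.67), 0.109 for Rtn1 (2.01), 0.0710 for Reep5 (0.68), 0.0809 for Reep6 (-0.58) and 0.200 for Atl1 (0.76). With all probe sets in the adjustment, Atl1 (0.76) did not pass (adjusted p = 0.0899), and 0 ER-network genes were called higher and 0 lower. Leaving out each array in turn, members called higher numbered 2 to 3 and lower 0 to 1, and ER-network genes called higher 0 to 1 and lower 0 to 2. The log2 differences then ranged over 1.73 to 2.23 for Rtn1, 0.64 to 0.73 for Reep5, -0.64 to -0.53 for Reep6 and 0.58 to 0.88 for Atl1. Each family pair kept its direction where it did not overlap between groups.

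Samples of the 2 genotypes share replicate numbers, but same-numbered arrays did not deviate together (correlations of deviations 0.0544, -0.0179 and -0.0406), so the numbers were not taken as pairs. With the replicate number as a block, 2 members were called higher and 1 lower, and Atl1 (0.76) had an adjusted p of 0.0805. No other member's call changed. All members lay above 4.63, the 20th percentile of signals, which is not a measured background. Reep1, at means of 6.33 and 6.30, lay close to the array medians of 6.31 to 6.41, and whether its probe set was near background was not tested.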
